A study of Mus musculus with 40 samples.

Results

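The genes described here are 9 enzymes of hepatic methionine and one-carbon metabolism, Mat1a, Gnmt, Pemt, Ahcy, Bhmt, Cbs, Cth, Sardh and Shmt1. They were chosen with earlier results of these data known. They were looked up by gene symbol among the 21448 symbols of the probe count table, and each of the 9 was found there. The samples were livers of wild-type Crl:CD1(ICR) mice that had received GenX, a short-chain fluorinated ether acid, by oral gavage for 90 days. Each sex had a control group at 0 mg/kg and groups at 0.1, 0.5 and 5 mg/kg per day, with 5 mice in each of the 8 groups. These were the first 5 animals of each group by animal number. A single fixed and embedded section per mouse was scraped from its slide and measured with TempO-Seq, in which neighbouring short probes hybridized to an RNA are joined and the joined products amplified and sequenced. Values are given as CPM, a probe's reads scaled to a common library size, always on the most counted probe of a gene unless the other probe is named. Levels of different genes are not compared, since each probe captures its target with its own efficiency.

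Methionine metabolism in the liver is a cycle with side branches. Mat1a makes S-adenosylmethionine (SAM), the methyl donor of the cell, and methyltransferases such as Gnmt and Pemt turn SAM into S-adenosylhomocysteine, which Ahcy splits into homocysteine. Homocysteine is either methylated back to methionine, in the liver largely by Bhmt with betaine as donor, or sent through transsulfuration by Cbs and Cth to cysteine, while Sardh and Shmt1 connect the cycle to sarcosine, glycine, serine and the folate pool. Most of these enzymes are highly expressed in hepatocytes.

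The sequence before the start site is shown for Gnmt, Bhmt and Cbs, the 3 members that differed from control in both sexes at 5 mg/kg and, in both sexes, from the 0.5 mg/kg group as well. The sequences are from RefSeq on GRCm38.p6, cut to bases before the start in both RefSeq and GENCODE, and read 5′ to 3′ on the coding strand, which is the minus strand for all 3 genes. The Gnmt stretch covers chr17:46729169-46729415, the Bhmt stretch chr13:93637962-93638008 and the Cbs stretch chr17:31637239-31637455. Capitals mark exact matches to AGGTCA, the half-site of many nuclear receptors, and to CCAAT, each searched on both strands.
Gnmt: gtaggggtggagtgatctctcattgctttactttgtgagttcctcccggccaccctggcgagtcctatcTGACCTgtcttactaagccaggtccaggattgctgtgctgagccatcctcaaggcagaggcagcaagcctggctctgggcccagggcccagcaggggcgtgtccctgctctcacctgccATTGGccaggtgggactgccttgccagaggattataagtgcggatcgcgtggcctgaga
Bhmt: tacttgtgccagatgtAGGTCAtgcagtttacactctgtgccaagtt
Cbs: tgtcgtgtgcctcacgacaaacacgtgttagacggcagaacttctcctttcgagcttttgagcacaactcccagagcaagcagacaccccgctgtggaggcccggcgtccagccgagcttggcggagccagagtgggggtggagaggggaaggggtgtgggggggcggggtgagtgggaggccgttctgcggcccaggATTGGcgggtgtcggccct
The Gnmt stretch held 1 match to each motif, the Bhmt stretch 1 match to AGGTCA, and the Cbs stretch 1 match to CCAAT. The promoters of all genes were cut to the same number of bases, counted from the upstream end. Of these, 13.9% held AGGTCA and 33.6% held CCAAT in a window like that of Gnmt. In the 47 bases of the Bhmt window 2.59% held AGGTCA, and 30.6% held CCAAT in a window like that of Cbs. The Bhmt stretch ends at its GENCODE start, while in other promoters these 47 bases are those farthest from the RefSeq start. The matches describe these letters only.

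The library of mouse 355, a female at 0.5 mg/kg, held 6711981 reads, fell below the depth criterion of the study (the mean less 2 SD) and was left out of the fit. In it, 7 of the 9 members lay below all female controls and Mat1a and Ahcy within their range. The other 39 libraries held 10341341 to 15562253 reads. In these, the reads per probe gathered at a first peak of 21 to 50 reads, and the total divided by that peak, an estimate of captured molecules, was 489778 to 649658 in the males at 5 mg/kg against 284218 to 367656 in the male controls, with no overlap, and 306800 to 342557 against 306761 to 522313 in the females. Probes with few reads are therefore less precise than their read numbers would say. The part of this estimate in the results for males was not tested. All 17 probes of the 9 members passed the filter on low counts, as 17877 probes of 12418 genes did in all, but the second probes of Gnmt and Cbs had few reads and were not used for reading direction.

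At 5 mg/kg, 7 of the 9 members fell in males and 5 of the 9 fell in females, and no member rose in either sex. A member was called when edgeR's quasi-likelihood test gave an adjusted p (Benjamini-Hochberg, over all probes tested) below 0.1. Those called in males were Mat1a, Gnmt, Pemt, Bhmt, Cbs, Cth and Sardh, and those called in females were Gnmt, Pemt, Bhmt, Cbs and Cth. Because the members were chosen with earlier results of these data known, the shares of all probes that follow are a background and not a test of the members. Of all probes tested, 8.28% were called in males at this dose, 3.45% lower and 4.83% higher, and 3.66% in females, 1.83% lower and 1.83% higher. Among the 2477 probes with a mean of at least 50 CPM, where 7 of the members lie, 17.2% were called lower in males and 9.25% in females. All treated males lay below all control males for 7 members, against 3.19% of all probes, and the same held in females for 4 members, against 1.49% of all probes. These 2 shares include the probes with few reads, and the share among probes of at least 50 CPM was not counted. The median log2 fold change of the 9 members was −0.79 in males and −0.61 in females, and that of all probes was 0.10 and −0.01. The share of all calls in males that were higher was 58.3%, and it moved with the scaling, to 50.8% with DESeq2 size factors and 71.3% with library totals alone, with all-probe medians of 0.03 and 0.24. The split in females was 49.9% and 58.3% with library totals alone. Under these scalings the 7 members called in males and the 5 called in females stayed called and negative. With the library of mouse 355 added to the fit, Cbs in males and Gnmt, Pemt and Cbs in females lost their calls, leaving 2 members called in females. In that fit, 4.84% of all probes were called in males and 1.38% in females.

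**Figure D1:**
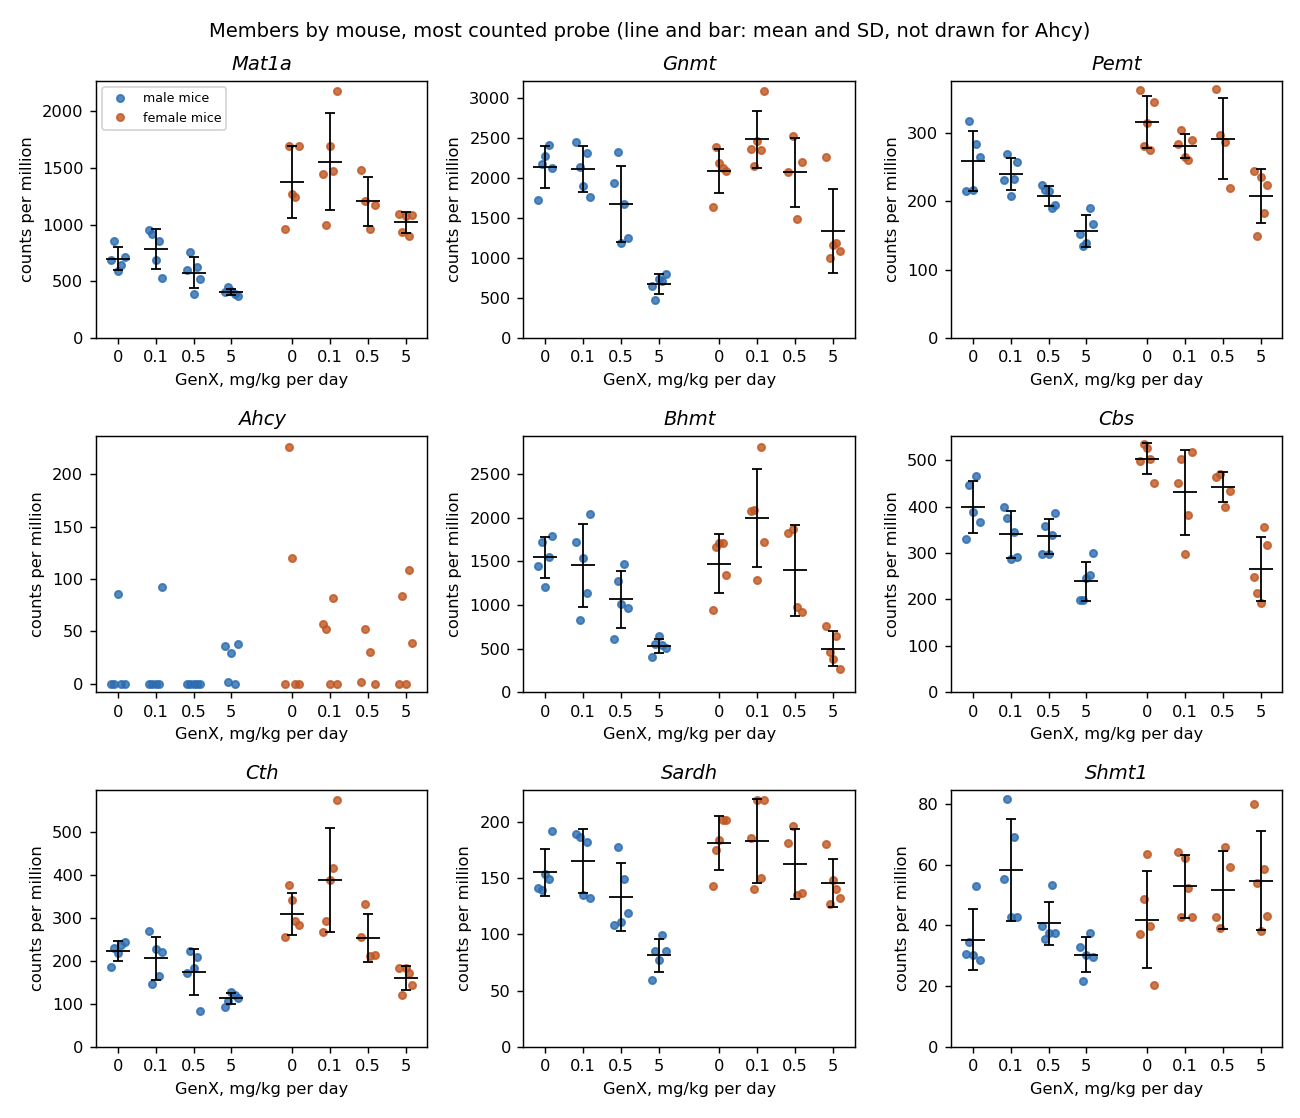
CPM of each member by mouse (y axis, linear), by dose of GenX in mg/kg per day (x axis), males in blue and females in orange. Each point is 1 mouse and the line and bar are the mean and SD of the group, which are not drawn for Ahcy, whose values are mostly 0. For Mat1a, Gnmt, Pemt, Bhmt, Cbs, Cth and Sardh, the 5 males at 5 mg/kg lay below all male controls.

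Of the enzymes from methionine to homocysteine, Gnmt (chr17:46725664-46729168, minus strand), which methylates glycine and is regarded as a buffer of the hepatic SAM pool, was counted at 2420.3, 2273, 2177, 2122 and 1721 CPM in the male controls and at 797, 743, 716, 648 and 479.8 CPM in the males at 5 mg/kg. The groups were far apart, and the treated mean was 31.6% of the control mean. In females, the controls were at 2392, 2186, 2131, 2086 and 1644 CPM and the mice at 5 mg/kg at 2268, 1181, 1161, 1089 and 994 CPM. Here 4 of the 5 treated mice lay below all controls and 1, mouse 451, lay within the control range. The log2 fold change was −1.66 ± 0.18 (SE, n = 5 and 5, adjusted p = 7.41e-10 by edgeR) in males and −0.64 ± 0.17 (adjusted p = 0.0267) in females. The female call was lost when mouse 452 (adjusted p = 0.119) or mouse 455 (adjusted p = 0.102) of the treated group was left out, and when only the 2 groups compared were fitted (adjusted p = 0.123).

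Mat1a (chr14:41105035-41124412, plus strand), the SAM synthetase of the adult liver, fell in males at 5 mg/kg. The male controls were at 858, 712, 691, 647 and 587 CPM and the males at 5 mg/kg at 445, 409, 408, 389 and 373 CPM, so that the groups did not overlap and the treated mice were tightly grouped. The log2 fold change was −0.79 ± 0.17 (adjusted p = 9.42e-04, edgeR). The female controls were at 1696, 1694, 1270.2, 1244 and 965 CPM and the females at 5 mg/kg at 1092, 1088, 1076, 933 and 901 CPM, and the difference of −0.43 ± 0.17 did not pass the threshold (adjusted p = 0.233, edgeR), although it did without control mouse 151, without the filter on low counts (adjusted p = 0.0581) and with the probes summed by gene (adjusted p = 0.0945). The other Mat1a probe gave −0.43 ± 0.17 for the males (adjusted p = 0.130) and −0.50 ± 0.17 for the females (adjusted p = 0.1002), both short of the threshold by edgeR.

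Pemt (chr11:59970614-60046489, minus strand), which methylates phosphatidylethanolamine to phosphatidylcholine, fell in both sexes. The male controls were at 318, 284, 265, 216 and 216 CPM, and the males at 5 mg/kg at 191, 167, 152, 139 and 135 CPM. The female controls were at 364, 345, 316, 282 and 275 CPM, and the females at 5 mg/kg at 245, 236, 225, 184 and 150.0 CPM. Treated and control mice did not overlap in either sex, and the log2 fold changes were −0.73 ± 0.15 (adjusted p = 3.45e-04) and −0.61 ± 0.15 (adjusted p = 0.00786, edgeR). The other Pemt probe was called in males (−0.86 ± 0.22, adjusted p = 0.00863) and not in females (−0.38 ± 0.22, adjusted p = 0.442).

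Ahcy (chr2:155059310-155074497, minus strand), the S-adenosylhomocysteine hydrolase, could not be read from its most counted probe. That probe had 3 or fewer reads in 22 of the 39 mice and no read in any of the 5 males at 0.5 mg/kg, while single mice reached 226 CPM, and no comparison of it passed the threshold in the edgeR fit used throughout. Other settings changed this. Without the filter on low counts, the males at 0.5 mg/kg differed from control (adjusted p = 3.23e-06) and from 5 mg/kg (adjusted p = 9.38e-07) and the sexes differed at 0.5 mg/kg (adjusted p = 0.0149). DESeq2 called the same differences (adjusted p = 1.63e-13, 1.35e-13 and 2.63e-05). With library totals alone the males at 5 and 0.5 mg/kg differed (adjusted p = 0.0981). Without control mouse 103, the only male control over 0.1 CPM, the difference at 5 mg/kg passed in males. The other Ahcy probe had reads in all 39 mice. It was at 57.1, 32.8, 30.7, 25.8 and 24.5 CPM in the male controls and at 19.6, 5.54, 5.49, 5.396 and 3.98 CPM in the males at 5 mg/kg, without overlap, a log2 fold change of −2.096 ± 0.45 (adjusted p = 8.81e-04, edgeR). In females it was at 4.59 to 38.02 CPM in the controls and 11.2 to 25.1 CPM at 5 mg/kg, a log2 difference of −0.12 ± 0.43 (adjusted p = 1, edgeR). The difference between the sexes on this probe, 1.98 ± 0.61, did not pass the threshold (adjusted p = 0.126, edgeR), but did without female control mouse 152, without treated male 403, with DESeq2 (adjusted p = 0.0357) and without the filter on low counts (adjusted p = 0.0946). Transcripts of Gm4737 and Gm9826 match Ahcy transcripts at 99.7% and 99.2% identity over 2083 and 1299 bases, so reads of these genes and of Ahcy may not be separable, and what sets the probes apart was not tested.

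Bhmt (chr13:93616675-93637961, minus strand), the betaine-dependent route back to methionine, fell to about the same share of control in both sexes. The male controls were at 1795, 1722, 1556, 1449 and 1204 CPM and the males at 5 mg/kg at 641, 549, 545, 506 and 408 CPM. The female controls were at 1714, 1707, 1668, 1339 and 948 CPM and the females at 5 mg/kg at 755, 639.6, 467, 382 and 266 CPM. No treated mouse reached a control of its sex, and the group means were 34.3% and 34.03% of control. The log2 fold changes were −1.54 ± 0.24 (adjusted p = 4.09e-06) for the males and −1.56 ± 0.24 (adjusted p = 7.91e-06, edgeR) for the females. Bhmt has only 1 probe, and transcripts of Gm5096 and Bhmt-ps1 match its own at 99.4% and 98.9% identity over 1869 and 1224 bases, so its counts may include reads of these copies.

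Both enzymes of transsulfuration fell in both sexes. Cbs (chr17:31608894-31637238, minus strand), which joins homocysteine to serine, was at 467, 446, 388, 367 and 329.9 CPM in male controls and 301, 252, 245, 199.6 and 198 CPM in males at 5 mg/kg. In females it was at 535, 527, 503, 498 and 451 CPM in controls and 356, 318, 249, 213 and 192 CPM at 5 mg/kg. The groups did not overlap in either sex, with log2 fold changes of −0.74 ± 0.15 (adjusted p = 6.36e-04) for the males and −0.92 ± 0.15 (adjusted p = 4.72e-05, edgeR) for the females.

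Cth (chr3:157894248-157925077, minus strand), which releases cysteine from cystathionine, was at 245, 237, 229, 218 and 186 CPM in male controls and 128, 121, 114, 106 and 92.5 CPM in males at 5 mg/kg. In females the controls were at 376, 342, 293, 283 and 254 CPM and the mice at 5 mg/kg at 184, 183, 172, 143 and 121 CPM, again without overlap. The log2 fold changes were −0.99 ± 0.20 (adjusted p = 3.40e-04) and −0.95 ± 0.20 (adjusted p = 0.00139, edgeR). The other Cth probe gave −0.83 ± 0.21 (adjusted p = 0.00592) and −1.03 ± 0.21 (adjusted p = 9.79e-04, edgeR), so Cth was the member called on both probes in both sexes.

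On the glycine side, Sardh (chr2:27188393-27248337, minus strand), the mitochondrial enzyme that removes the methyl group of sarcosine, fell in males. The male controls were at 192, 154, 149, 141 and 139.9 CPM and the males at 5 mg/kg at 99.8, 85.4, 85.2, 77.3 and 59.7 CPM, without overlap (−0.93 ± 0.17, adjusted p = 1.00e-04, edgeR). The other Sardh probe was also called in males (−0.92 ± 0.22, adjusted p = 0.00275), with overlapping groups. The female controls were at 143 to 202 CPM and the females at 5 mg/kg at 127 to 181 CPM, and the difference of −0.31 ± 0.17 did not pass the threshold (adjusted p = 0.360, edgeR).

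Shmt1 (chr11:60788104-60811718, minus strand), the cytosolic enzyme that interconverts serine and glycine with a folate carrier, passed no threshold in any comparison by edgeR. It was at 28.5 to 53.0 CPM in the male controls and 21.7 to 37.6 CPM in the males at 5 mg/kg, and at 20.2 to 63.6 CPM and 38.01 to 79.9 CPM in the females. The log2 differences at 5 mg/kg were −0.22 ± 0.25 (95% interval −0.72 to 0.29) in males and 0.38 ± 0.25 (−0.12 to 0.89) in females.

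**Figure D2:**
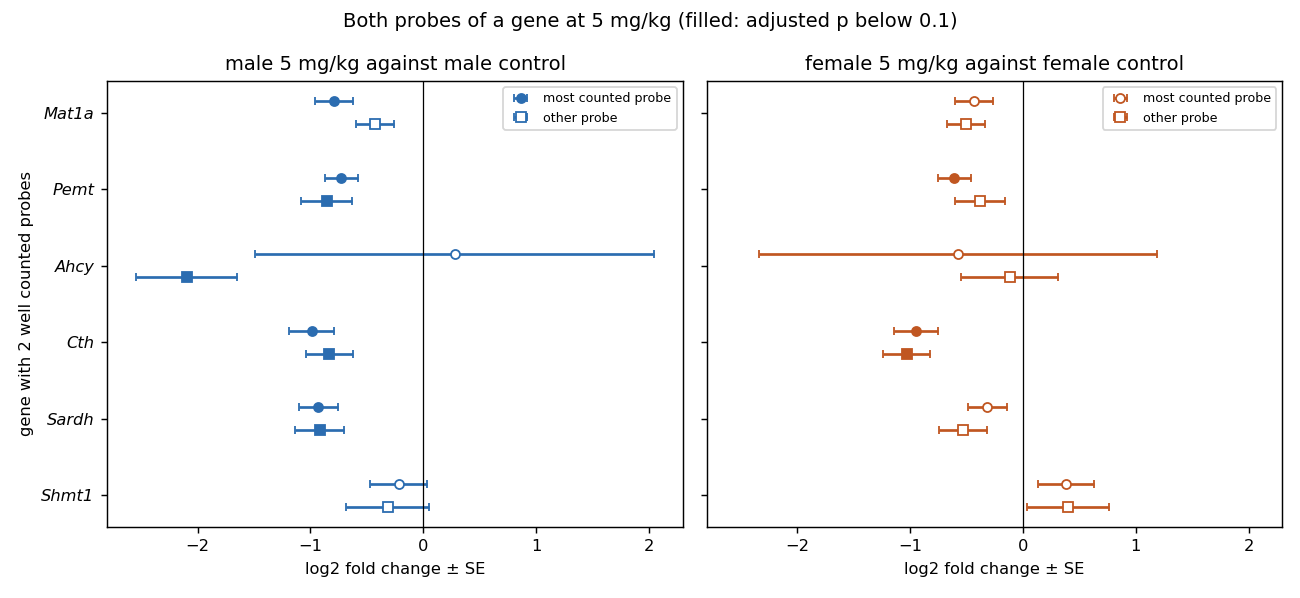
Log2 fold change at 5 mg/kg against control (x axis, bars are SE of the fit) for the 6 genes with 2 probes of sufficient counts (y axis), circles for the most counted probe and squares for the other, males left and females right, filled where the adjusted p was below 0.1. Both probes lie on the same side of 0 except for Ahcy in males, where the values are 0.28 and −2.096.

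Of the 6 members whose second probe had more than 3 reads in every mouse, 5 had both probes on the same side of 0 in males at 5 mg/kg and 6 did in females. In males, both probes were called for 3 members (Pemt, Cth and Sardh), only the most counted probe for Mat1a and only the other probe for Ahcy. In females both were called for Cth and only the most counted probe for Pemt. The second probes of Gnmt and Cbs reached at most 106 and 166 reads in any mouse.

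The lower doses gave no called member. In males at 0.1 mg/kg, 0 of the 9 members were called (0.0336% of all probes), with 1 member at an unadjusted p below 0.05 and 0 called by DESeq2. In males at 0.5 mg/kg, 0 were called (2.38% of all probes) although 8 of the 9 log2 differences were negative and 4 members (Gnmt, Pemt, Ahcy and Bhmt) had an unadjusted p below 0.05. Both counts include Ahcy, which could not be read from this probe. Of all 17877 probes, 46.7% were below 0 in that comparison and 3235 had an unadjusted p below 0.05. DESeq2 called 1 member there, Ahcy, on the probe with no read in this group. The largest of the other differences was that of Bhmt, at 1465, 1279.9, 1017, 968 and 611 CPM (−0.53 ± 0.23, adjusted p = 0.259, edgeR), which overlapped the controls and passed without the filter on low counts (adjusted p = 0.0486). In females, 0 members were called at 0.1 mg/kg (0% of all probes, with 1843 probes at an unadjusted p below 0.05 and 166 called by DESeq2) and 0 at 0.5 mg/kg (0.213% of all probes), with 0 at an unadjusted p below 0.05 and 0 called by DESeq2 at either dose. At 0.5 mg/kg, 8 of the 9 log2 differences, that of Ahcy among them, were negative in females as well, where 50.1% of all probes were below 0. The most positive difference at 0.1 mg/kg was that of Shmt1 in males, 0.72 ± 0.25 (adjusted p = 0.350, edgeR). The comparisons with control within a sex share the same 5 control mice.

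**Figure D3:**
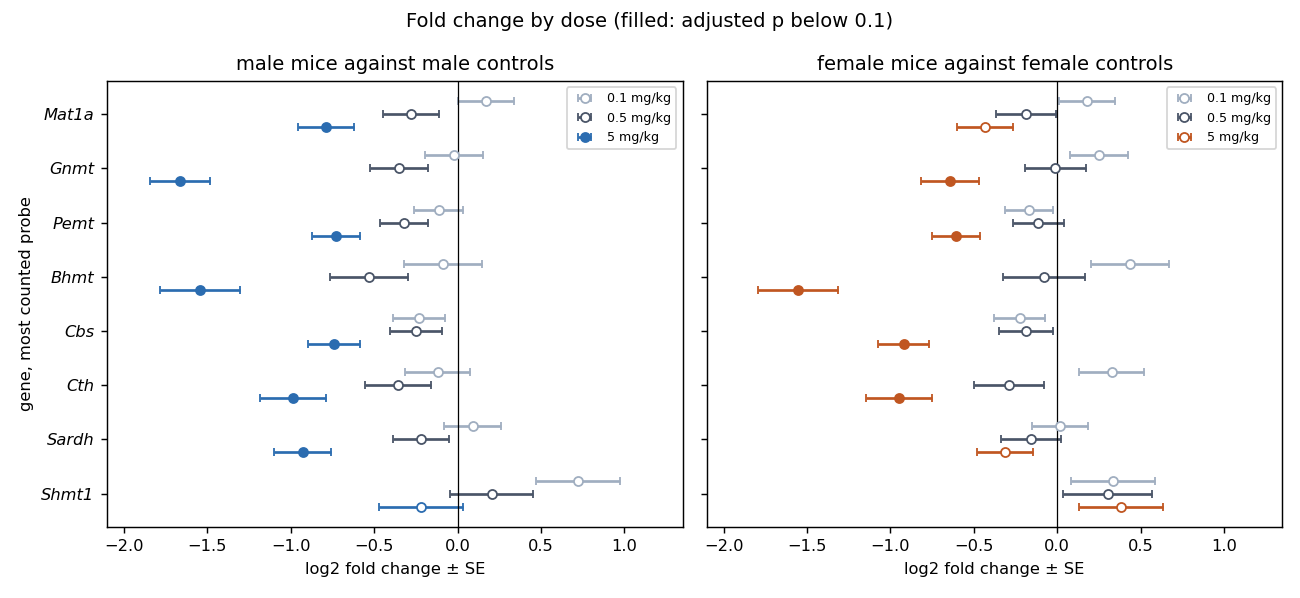
Log2 fold change against the controls of the same sex (x axis, bars are SE of the fit) for 8 members (y axis), with Ahcy left out because its most counted probe was mostly at 0. Light grey, dark grey and colored points are 0.1, 0.5 and 5 mg/kg, filled where the adjusted p was below 0.1. Filled points occur only at 5 mg/kg, for 7 members in males and 5 in females.

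The step from 0.5 to 5 mg/kg was tested by itself. In males, 5 of the 9 members were lower at 5 than at 0.5 mg/kg (2.64% of all probes were called): Gnmt (−1.31 ± 0.18, adjusted p = 8.26e-07), Bhmt (−1.01 ± 0.24, adjusted p = 0.00785), Sardh (−0.71 ± 0.17, adjusted p = 0.0108), Cth (−0.63 ± 0.20, adjusted p = 0.0928) and Cbs (−0.49 ± 0.15, adjusted p = 0.0976, edgeR). The males at 5 mg/kg lay below all males at 0.5 mg/kg for Gnmt and Sardh, while the groups overlapped for Bhmt, Cbs and Cth. The share of all probes without overlap in this step was not counted, so these separations have no background. Leaving out 1 mouse left 3 to 5 members called. The calls of Cth and Cbs lay near the threshold, and that of Cth was lost in 9 of the 10 fits that left out 1 mouse and that of Cbs in 8 of the 10. With the library of mouse 355 added, Gnmt alone of these kept its call. In females, with 4 mice at 0.5 mg/kg, 3 members were lower (1.23% of all probes): Bhmt (−1.48 ± 0.25, adjusted p = 1.60e-04), Cbs (−0.73 ± 0.16, adjusted p = 0.00722) and Gnmt (−0.63 ± 0.18, adjusted p = 0.0997, edgeR). The Gnmt call lay at the threshold and was lost in 7 of the 9 fits that left out 1 mouse, and with that library added all 3 calls were lost.

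The sexes differed for 1 member. The log2 fold change of Gnmt at 5 mg/kg was 1.02 ± 0.25 less negative in females than in males (95% interval 0.53 to 1.52, adjusted p = 0.030, edgeR), where 1.04% of all probes were called. Without mouse 451, the female at 5 mg/kg within the control range, the difference was 0.75 and did not pass the threshold (adjusted p = 0.126). For Bhmt the difference was −0.01 (95% interval −0.67 to 0.65), for Cth 0.04 (−0.51 to 0.60), for Cbs −0.18 (−0.62 to 0.26) and for Pemt 0.12 (−0.29 to 0.53), none past the threshold. Sardh and Mat1a, called in males only, differed between the sexes by 0.62 (0.13 to 1.10, adjusted p = 0.233) and 0.36 (−0.12 to 0.83, adjusted p = 0.611, edgeR), so a difference between the sexes was not shown for them in this fit. With DESeq2 the Sardh difference passed (0.71, adjusted p = 0.0896). These values are on the most counted probes. On the other Mat1a probe, the mean at 5 mg/kg was 74.3% of control in males and 70.5% in females. On the other Sardh probe, the mean was 52.9% of control in males and 69.3% in females, against 52.5% and 80.5% on the most counted probe. The median difference over all probes was −0.16. At 0.5 mg/kg, 0 members differed between the sexes (0.274% of all probes), with 1 at an unadjusted p below 0.05, Ahcy, which was also the 1 member that DESeq2 called.

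Without exposure, 1 member differed between the sexes. Mat1a was higher in the female controls than in the male controls (0.97 ± 0.17, adjusted p = 1.26e-04, edgeR), where 3.49% of all probes were called, and every female control lay above every male control. The other Mat1a probe gave 1.13 ± 0.17 (adjusted p = 5.55e-06). The Cth groups also did not overlap, but its difference of 0.47 ± 0.20 did not pass the threshold (adjusted p = 0.245, edgeR), while it passed on the other probe (0.66 ± 0.21, adjusted p = 0.0801) and with the probes summed by gene (adjusted p = 0.0950). The share of all probes without overlap between the controls was not counted.

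Enzymes next to the members were read from a list of 74 genes in 8 roles, also chosen with earlier results of these data known, of which 69 were tested. At 5 mg/kg, 5 rose and 11 fell in males, and 6 rose and 7 fell in females, with a median log2 fold change over the 69 genes of 0.01 and 0.06, beside 0.10 and −0.01 for all probes, of which 8.28% and 3.66% were called. At 0.5 mg/kg, where 2.38% of all probes were called in males and 0.213% in females, 1 rose (Chpt1) and 4 fell (Pipox, Agxt, Cdo1 and Ethe1) in males and 1 rose (Chpt1) in females. Cdo1, which oxidizes the cysteine that transsulfuration supplies, fell from 170.2 ± 13.4 to 34.9 ± 15.5 CPM (SD, n = 5 and 5) in males, a log2 fold change of −2.29 ± 0.24 (adjusted p = 2.66e-10, edgeR), and by a log2 fold change of −1.04 ± 0.23 (adjusted p = 0.00254) in females. Cdo1 also fell in males at 0.5 mg/kg (−0.77 ± 0.23, adjusted p = 0.0753). Of the 10 genes of this role, 3 fell in males (Cdo1, Mpst and Sqor), while 2 fell (Cdo1 and Sqor) and 2 rose (Csad and Suox) in females. Of these, Mpst, Sqor and Csad, like Ethe1 above and Cept1, Chdh, As3mt, Mthfd2 and Folr2 below, were named after their values were seen.

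Around choline and betaine, Pipox and Dmgdh fell and Chpt1 rose in both sexes at 5 mg/kg, while Cept1 rose in males and Chdh in females. Dmgdh, which demethylates the dimethylglycine that the Bhmt reaction leaves, fell by 0.57 and 0.61 on the log2 scale in males and females (adjusted p = 0.00281 and 0.00258, edgeR). Pipox, which oxidizes sarcosine and pipecolate in peroxisomes, fell in males at 0.5 mg/kg (−0.62 ± 0.17, adjusted p = 0.0457) and further at 5 mg/kg (−1.29 ± 0.17, adjusted p = 2.47e-07), while the females passed only at 5 mg/kg (−0.58 ± 0.17, adjusted p = 0.0541). Chpt1, of the choline branch that makes phosphatidylcholine without methylation, rose at 5 mg/kg by 0.61 on the log2 scale in males and by 1.34 in females. At 0.5 mg/kg it was the only gene of the list that edgeR called higher in either sex. Its log2 fold changes there were 1.03 ± 0.18 (adjusted p = 3.39e-04) in males and 0.80 ± 0.19 (adjusted p = 0.0613, edgeR) in females. DESeq2 called 3 genes of the list higher in females at 0.5 mg/kg.

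Adk, which clears the adenosine that the Ahcy reaction releases, fell in both sexes (−0.67 ± 0.11, adjusted p = 9.17e-06, and −0.54 ± 0.11, adjusted p = 7.45e-04, edgeR) and was the only one of the 5 genes of its role to change. Of the 9 serine and glycine genes, 3 fell in males: Gldc of the glycine cleavage system (−1.86 ± 0.31), the glyoxylate transaminase Agxt (−1.61 ± 0.23) and the serine dehydratase Sds (−1.14 ± 0.31). Only Agxt of these passed in females (−1.07 ± 0.23, adjusted p = 0.00166). Aldh1l1, a folate dehydrogenase, fell in both sexes (−1.26 ± 0.18 and −0.96 ± 0.18) and was the only one of the 15 folate genes called in females. In males Mthfd2 rose and Folr2, at a mean of 2.23 CPM in controls and with no read at 5 mg/kg, fell, both with overlapping groups. None of the 4 genes of the folate route back to methionine was called. Mtap of methionine salvage rose in both sexes (0.81 ± 0.18 and 0.64 ± 0.17), and Inmt, an indolethylamine methyltransferase, rose in females (0.91 ± 0.20, adjusted p = 0.00260), while As3mt, another methyltransferase, rose in males. The log2 differences of Cdo1 and Gldc at 5 mg/kg were less negative in females than in males (by 1.25 ± 0.32 and 1.64 ± 0.42, both with adjusted p = 0.0488, edgeR), with Gldc at −0.22 in females, not past the threshold, and Csad, named after its values were seen, also differed (2.69 ± 0.58, adjusted p = 0.00908).

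**Figure D4:**
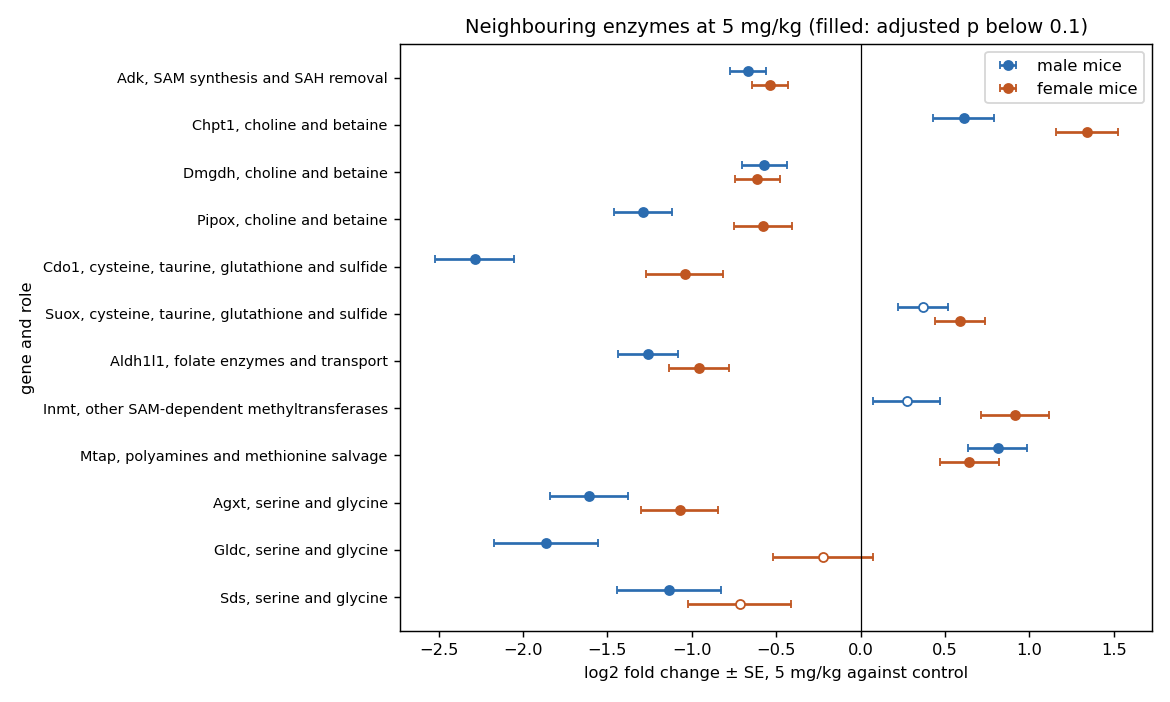
Log2 fold change at 5 mg/kg against the controls of the same sex (x axis, bars are SE of the fit) for 12 enzymes of the wider list named by rule (y axis, with their role), males in blue and females in orange, filled where the adjusted p was below 0.1. Cdo1 and Gldc lie farther to the left in males than in females, and Chpt1 and Mtap are filled and to the right of 0 in both sexes.

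Markers of cell types were read beside these values. Of the 5 hepatocyte markers with a probe, Apoa1, Fgb and Cps1 fell at 5 mg/kg in both sexes (−0.88, −0.61 and −1.18 in males and −0.71, −0.69 and −1.02 in females). Alb and Ttr stayed nearer to control and did not pass (−0.07 and −0.16 in males and −0.22 and −0.10 in females), so the markers of this list did not move alike. The summed level of the 5 was 19403 to 26279 CPM in males at 5 mg/kg against 32446 to 38854 CPM in male controls, and 17033 to 26468 CPM against 25018 to 42757 CPM in females. The median log2 fold change of these markers was −0.61 in males and −0.69 in females, beside −0.79 and −0.61 for the members. Of 6 stellate cell markers, only the collagens Col1a1 and Col3a1 rose in males at 5 mg/kg. The other 4 were not called and went both ways (Lrat 1.65, Dcn 0.15, Reln −0.70 and Des −1.11). The sum of all 6 was 157 to 194 CPM against 63.7 to 129 CPM in the male controls. Of 6 endothelial markers Clec4g fell in the same males (sum 92.4 to 178 CPM against 159 to 187 CPM, with Lyve1 at 0). The 6 Kupffer cell markers summed to 34.6 to 57.4 CPM against 31.4 to 105 CPM in the same groups, with Marco at 0 at 5 mg/kg, and the lymphocyte markers to 3.21 to 11.7 CPM against 0 to 10.6 CPM. Marco was also at 0 in males at 0.1 and 0.5 mg/kg and in females at 0.1 mg/kg. Lyve1 was also at 0 in males at 0.1 mg/kg, in female controls and in females at 5 mg/kg. None of the 6 Kupffer cell, 3 bile duct or 4 lymphocyte markers tested was called at 5 mg/kg in either sex. In bulk tissue, fewer cells of a type and less RNA per cell cannot be told apart, and the part of these changes in the fall of the members was not tested.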

How the data were processed

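Livers of 40 mice were measured with TempO-Seq. The authors demultiplexed the reads with bcl2fastq 2.17.1.14 and aligned them to the probe sequences with Bowtie (build mm10), and deposited raw read counts for 30146 probes in each mouse, with no normalization. Each sample is a separate mouse, grouped by the sex and dose in the labels.

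The counts were scaled by TMM and tested with edgeR 4.0.16 (R 4.3.3, limma 3.58.1), after filterByExpr, in 1 quasi-likelihood fit of 8 groups and 39 libraries. Adjusted p-values (Benjamini-Hochberg) cover the 17877 probes tested, and a call is an adjusted p below 0.1, the level of the study. CPM use TMM-scaled library sizes. Intervals are at 95%. Read totals were 10341341 to 15562253 per library, and amplified reads are not independent molecules.

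The members, the wider list and the markers were chosen with earlier results of these data known. All members were named in every comparison. Of the wider list, genes were named that were called at 5 mg/kg in at least 1 sex without overlap of treated and control mice of that sex, at most 3 a role by the size of the log2 fold change, and exceptions are stated. Gene positions are from GENCODE vM21 on GRCm38, and no probe was placed on them. Alternatives were DESeq2 1.42.0, its size factors in edgeR, library totals without TMM, no filter, all 40 libraries, probes summed by gene, only the groups compared, and leaving out each mouse.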

Additional observations from a re-analysis of the deposited data

Results flagged for a closer look

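Of 71 combinations of a member and a group, 6 held a mouse set apart from the others of its group by Dixon's test at the 95% level, and chance flags about 1 in 20. These were Ahcy at 86.1 CPM in male control mouse 103 and at 92.9 CPM in mouse 205 of the males at 0.1 mg/kg, Sardh at 192 CPM in male control mouse 105, Shmt1 at 53.0 CPM in male control mouse 104 and at 53.2 CPM in mouse 304 of the males at 0.5 mg/kg, and Gnmt at 2268 CPM in mouse 451 of the females at 5 mg/kg. The 2 Ahcy values are on the probe that was mostly at 0.

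The response of Gnmt at 5 mg/kg differed between the sexes by 1.02 on the log2 scale in the test of the difference itself, and by 0.75, which did not pass the threshold, without mouse 451.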

How the results depend on the processing

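At 5 mg/kg, Mat1a, Gnmt, Pemt, Bhmt, Cth and Sardh in males, Bhmt and Cth in females, and the Mat1a difference between the controls kept their direction and call under all 17 alternatives of each. DESeq2 called 1 member in males at 0.5 mg/kg (4.81% of all probes it tested) and 8 for males at 5 against 0.5 mg/kg (4.55%). Of these 8, Ahcy was higher at 5 mg/kg, on the probe with no read in males at 0.5 mg/kg. DESeq2 also called 1 member for the difference between the sexes at 0.5 mg/kg (2.18% of all probes) and 2 for that at 5 mg/kg (3.09%). It called 3 genes of the wider list higher in females at 0.5 mg/kg, where it called 1.56% of all probes in both directions. No filter gave 2 in males at 0.5 mg/kg (2.11% of all probes) and 1 for the sexes at 0.5 mg/kg (0.707%). All 40 libraries gave 2 in females at 5 mg/kg, 1 for the male and 0 for the female step from 0.5 mg/kg, and 0 for the sexes at 5 mg/kg. Probes summed by gene gave 2 between the controls (4.31% of all genes tested). Leaving out 1 mouse gave 3 to 5 for the male step, 0 to 1 for the sexes at 5 mg/kg and 1 to 2 between the controls. The shares of all probes in the fits without 1 mouse were not counted. The cause of these changes was not tested.

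Over all probes, 425 calls in males at 0.5 mg/kg became 865 with DESeq2 and 91 with all 40 libraries, 1480 at 5 mg/kg became 834 with all 40, 38 in females at 0.5 mg/kg became 302 with DESeq2, 108 without a filter, 8 with all 40 and 22 with only the groups compared, and 655 at 5 mg/kg became 988 and 238 with DESeq2 and all 40. The share of higher calls in males at 0.5 mg/kg was 73.2%, against 62.7% with DESeq2 size factors.

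Of 707 alternative values of single members, 646 kept direction and call and 17 changed sign, and of 1183 that left out a mouse, 1083 and 64. None of those that changed sign passed the threshold under either setting. The former were, in log2, with all 40 libraries, Shmt1 in females at 0.5 mg/kg (−0.032), Sardh in the female step (0.13) and, between the sexes at 0.5 mg/kg, Pemt (−0.034), Cbs (−0.26), Cth (−0.018), Sardh (−0.23) and Shmt1 (−0.24). With probes summed, they were Ahcy in males at 0.1 (−0.25) and 5 mg/kg (−0.85), Shmt1 in the female step (−0.00063), Mat1a between the sexes at 0.5 mg/kg (−0.16), and Ahcy (0.37) and Cth (−0.061) at 5 mg/kg. Without TMM they were Gnmt in females at 0.5 mg/kg (0.026) and Cth between the sexes at 5 mg/kg (−0.022), and with DESeq2 and with its size factors Bhmt there (0.085).

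Leaving out 1 mouse, the ranges that crossed 0 were, in males at 0.1 mg/kg, Gnmt −0.088 to 0.039, Ahcy −9.19 to 9.27 and Bhmt −0.24 to 0.059, and at 5 mg/kg Ahcy −0.053 to 9.44. In females they were Ahcy −1.33 to 0.36 and Sardh −0.058 to 0.099 at 0.1 mg/kg, Gnmt −0.12 to 0.12, Pemt −0.24 to 0.0017 and Bhmt −0.25 to 0.076 at 0.5 mg/kg, Ahcy −1.17 to 0.63 and its other probe −0.37 to 0.27 at 5 mg/kg, and Shmt1 −0.10 to 0.22 in the step. Between the sexes they were Mat1a −0.024 to 0.21, Ahcy −0.040 to 10.34, Cth −0.11 to 0.17, Sardh −0.040 to 0.19 and Shmt1 −0.094 to 0.30 at 0.5 mg/kg, Ahcy −10.02 to 0.37, Bhmt −0.21 to 0.15 and Cth −0.020 to 0.13 at 5 mg/kg, and Gnmt −0.11 to 0.037 and Bhmt −0.14 to 0.057 in the controls. Among these, Ahcy had the widest ranges, on the probe that was mostly at 0. No paired analysis was possible because each animal number belongs to 1 mouse.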
